A study of Mus musculus with 6 samples.

Results

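De novo fatty acid synthesis was followed in F1 female livers through 9 genes, Srebf1, Mlxipl, Acly, Acss2, Me1, Acaca, Acacb, Fasn and Thrsp. They were chosen by symbol among the 17624 genes in the table. Each symbol occurred once, so no measured value was needed to choose between rows. Liver RNA came from 3 iAsF1-F and 3 conF1-F mice, all C57BL/6 females. Inorganic arsenic (iAs) was in the drinking water of the iAsF1-F sires before mating and not in that of the conF1-F sires, and the dams and the F1 mice themselves were never exposed. Whether mice of one group shared a father or a litter is not given in the sources used here, nor is the age at which these livers were taken, so p-values describe the spread between these livers alone. The sample labels give a feeding status at harvest, and the paper's legend gives the refeeding condition.

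In the liver, carbohydrate taken up after a meal is turned into fatty acids. Citrate exported from mitochondria is cleaved to acetyl-CoA, acetyl-CoA is carboxylated to malonyl-CoA, and fatty acid synthase joins these units into palmitate at the cost of NADPH. Insulin drives this program through SREBP-1c, the product of Srebf1, and glucose through ChREBP, the product of Mlxipl. Refeeding after a fast is the classic stimulus that raises these genes together in rodent liver.

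The values are RPKM, read numbers scaled to transcript length and to the mapped reads of the library. Of the 9 genes, 7 averaged 1 RPKM or more across the livers and were tested, as were 6448 genes in all. Acaca (mean 0.0915 RPKM) and Acacb (mean 0.799 RPKM) stayed below that level. Srebf1, Mlxipl, Acly, Acss2, Fasn, Acacb and Thrsp were above 0 in every liver, and Me1 and Acaca were listed at 0 in some. Log2 fold changes are iAsF1-F over conF1-F on log2(RPKM + 1), a scale that understates the change of low genes. They come from limma fitted across all 6448 genes with Benjamini-Hochberg adjustment, and error is given as SE or as a 95% interval. By their decimals many values are means over several entries of a gene (2 for Thrsp and 10 for Srebf1, for example), so levels were compared between livers and not between genes. No read totals came with the values. Steps between the lowest values gave a relative depth, with the deepest library set to 100%, of 67.0% to 100% in iAsF1-F and 76.6% to 90.0% in conF1-F. Some livers list abundant genes at 0, as was the case for 329 (13.4%) of the 2449 genes that exceeded 10 RPKM somewhere, so a listed 0 was not read as absence. Where a value is a mean over entries, a single entry at 0 would lower it without making it 0. Srebf1, Mlxipl, Acly, Acss2, Fasn and Thrsp are such means (2 to 10 entries). That they were never listed at 0 therefore does not exclude a lost entry in some liver, and this was not tested.

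No gene of the pathway passed the adjusted threshold of 0.05, where 0.124% of all tested genes were higher and 0.124% lower in iAsF1-F. At an unadjusted p under 0.05, Thrsp and Acly were higher and none was lower (limma), against 2.75% higher and 2.37% lower among all tested genes. The iAsF1-F livers lay above all conF1-F livers for Thrsp, Acly and Acss2, 3 of the 9 genes, and below them for none. Among all tested genes 5.83% lay wholly higher and 5.71% wholly lower, and 6.34% lay wholly higher among the 5187 tested genes never listed at 0. Among the 6 tested genes of the pathway never listed at 0, the log2 fold change was above 0 for 5, with a median of 0.48. It was above 0 for 49.7% of all tested genes, and for 2546 of the 5187 never listed at 0, whose median was −0.0037. These genes were chosen with earlier results of the same livers known, so the counts describe them and do not set them apart from other genes.

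**Figure D1:**
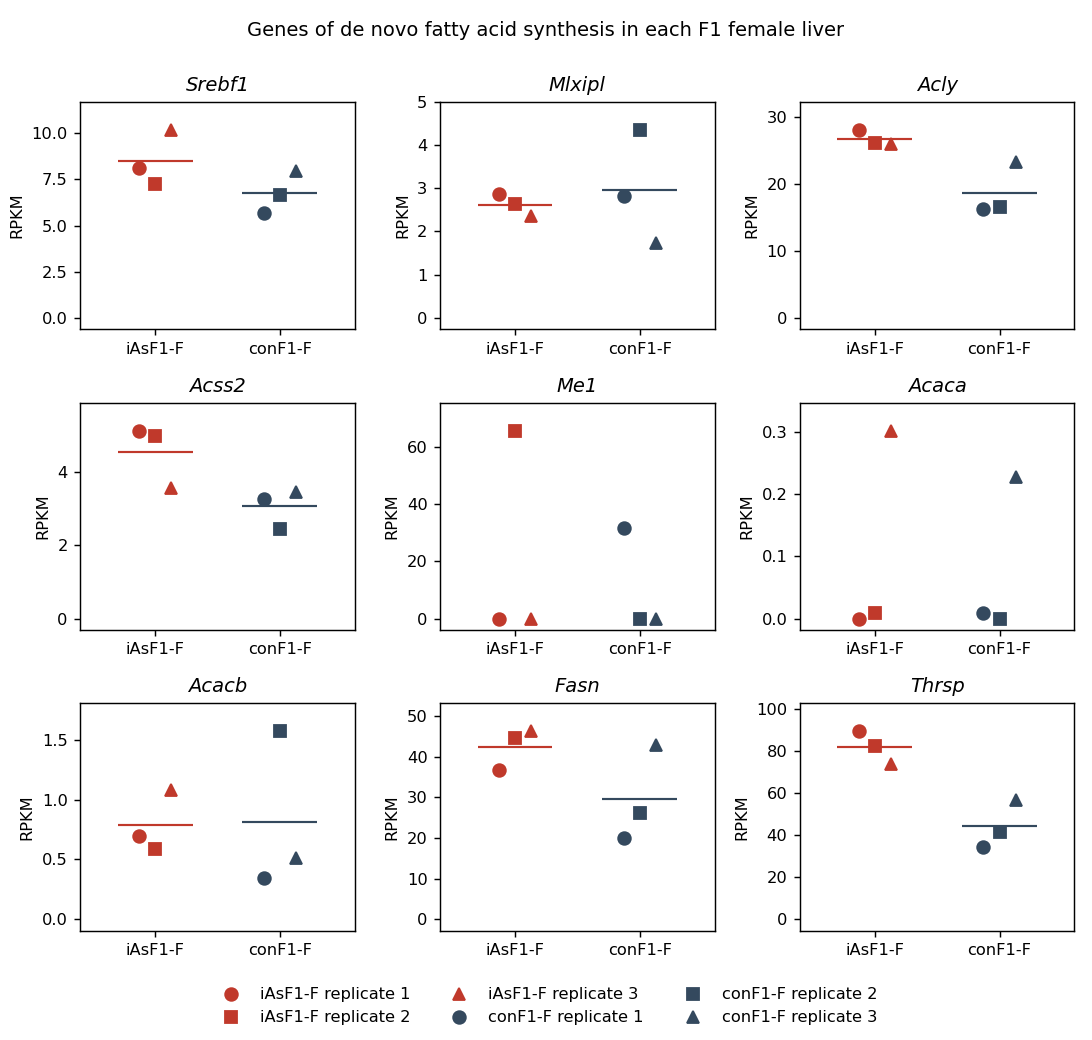
RPKM of each gene (vertical axis, a linear scale of its own in each panel) in each liver of iAsF1-F (red, left) and conF1-F (dark, right), with the marker shape for the replicate number and horizontal lines for group means, left out for Me1 and Acaca, which were listed at 0 in some livers. The groups are separate for Acly, Acss2 and Thrsp, with Thrsp between 73.7 and 89.2 RPKM in iAsF1-F and between 34.2 and 56.8 RPKM in conF1-F.

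Srebf1 encodes SREBP-1, the membrane-bound transcription factor whose liver form, SREBP-1c, switches on lipogenic enzymes after insulin. It was at 8.13, 7.24 and 10.2 RPKM in iAsF1-F livers, against 5.68, 6.67 and 7.95 RPKM in conF1-F. The groups overlapped, because conF1-F replicate 3 lay above iAsF1-F replicate 2. The mean was 8.52 ± 1.51 RPKM in iAsF1-F livers, against 6.77 ± 1.14 RPKM in the livers of conF1-F mice (SD, n = 3 each). Srebf1 had a log2 fold change of 0.29 (SE 0.17) with an interval of −0.14 to 0.72 and an adjusted p = 0.877 (limma). It was 0.17 without iAsF1-F replicate 3 and 0.19 without conF1-F replicate 1. Mlxipl encodes ChREBP, which answers to glucose metabolites. It was at 2.87, 2.64 and 2.37 RPKM in iAsF1-F livers, against 2.83, 4.35 and 1.73 RPKM in conF1-F. All iAsF1-F livers fell inside the range of the conF1-F livers, which differed among themselves by more than the groups did. Mlxipl had a log2 fold change of −0.08 (SE 0.27) with an interval of −0.75 to 0.60 and an adjusted p = 0.990 (limma). Without conF1-F replicate 2 it was 0.16, and neither value is larger than the spread between livers.

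Acly and Acss2 supply cytosolic acetyl-CoA, Acly from citrate and Acss2 from acetate. Acly, ATP citrate lyase, was at 28.0, 26.0 and 26.0 RPKM in iAsF1-F livers, against 16.3, 16.5 and 23.2 RPKM in conF1-F. Every iAsF1-F liver lay above every conF1-F liver, and the iAsF1-F livers were close together while conF1-F replicate 3 stood above the other conF1-F livers. The means of Acly were 26.7 ± 1.16 and 18.7 ± 3.96 RPKM in the livers of iAsF1-F and conF1-F mice (SD, n = 3 each), a ratio of 1.43. Its log2 fold change was 0.51 (SE 0.15, interval 0.13 to 0.89), with an unadjusted p of 0.0179 and an adjusted p = 0.877 from limma over all genes. The unadjusted p of Acly was 0.0563 with iAsF1-F replicate 1 left out, 0.0554 with conF1-F replicate 1 left out and 0.0572 with conF1-F replicate 2 left out (limma). Acss2, the cytosolic acetyl-CoA synthetase, was at 5.12, 4.98 and 3.55 RPKM in iAsF1-F livers, against 3.27, 2.44 and 3.45 RPKM in conF1-F. The groups did not overlap, but iAsF1-F replicate 3 was above conF1-F replicate 3 by a small margin. The means of Acss2 were 4.55 ± 0.868 RPKM in iAsF1-F livers, against 3.06 ± 0.537 RPKM in the livers of conF1-F mice (SD, n = 3 each), a ratio of 1.49. Its log2 fold change was 0.45 (SE 0.18, interval −0.0042 to 0.90), with an unadjusted p of 0.0515 and an adjusted p = 0.877 (limma).

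Fasn, the fatty acid synthase that builds palmitate, was at 36.6, 44.6 and 46.2 RPKM in iAsF1-F livers, against 19.9, 26.1 and 42.8 RPKM in conF1-F. The groups overlapped through conF1-F replicate 3 alone, which lay above iAsF1-F replicate 1, while the other conF1-F livers were below every iAsF1-F liver. The means of Fasn were 42.5 ± 5.12 RPKM in iAsF1-F livers, against 29.6 ± 11.8 RPKM in the livers of conF1-F mice (SD, n = 3 each), a ratio of 1.43. For Fasn the log2 fold change was 0.57 (SE 0.29) with an interval of −0.16 to 1.29 and an adjusted p = 0.877 (limma). It was 0.86 when conF1-F replicate 3 was left out and 0.33 when conF1-F replicate 1 was, so that either conF1-F liver moved the Fasn difference by over 1.5 times (adjusted p = 0.391 and 0.868, limma). Thrsp, known as Spot 14, is a small nuclear and cytosolic protein that responds to thyroid hormone and carbohydrate and promotes lipogenesis. It was at 89.2, 82.4 and 73.7 RPKM in iAsF1-F livers, against 34.2, 41.6 and 56.8 RPKM in conF1-F. The lowest iAsF1-F liver lay above the highest conF1-F liver. The means of Thrsp were 81.7 ± 7.77 RPKM in iAsF1-F livers, against 44.2 ± 11.5 RPKM in the livers of conF1-F mice (SD, n = 3 each), a ratio of 1.85. Its log2 fold change was 0.90 (SE 0.20, interval 0.40 to 1.40), with an unadjusted p of 0.00512, rank 51 of the 6448 tested genes, and an adjusted p = 0.637 (limma). With any single liver left out, the log2 fold change of Thrsp lay between 0.73 and 1.09. For Thrsp, Acly and Acss2 the exact permutation test (two-sided) gave p = 0.1 each, the smallest that 3 against 3 allow, and it gave p = 0.2 each for Fasn and Srebf1.

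**Figure D2:**
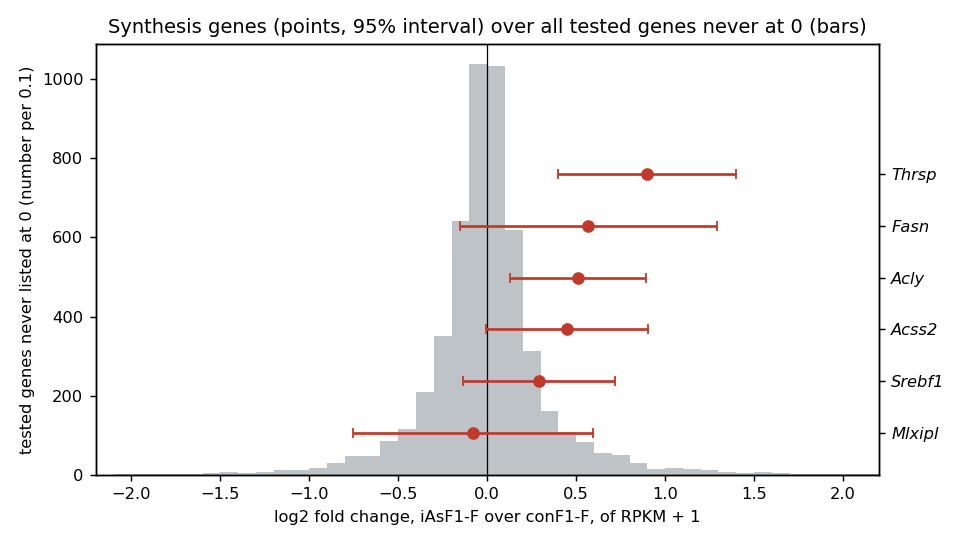
Log2 fold change of RPKM + 1, iAsF1-F over conF1-F (horizontal axis), of the 6 tested genes of the pathway never listed at 0 (red points with 95% intervals, right axis) drawn over the numbers of all 5187 tested genes never listed at 0 (grey bars, left axis). The intervals of Thrsp and Acly lie above 0, and those of Fasn, Acss2, Srebf1 and Mlxipl reach below it.

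Me1, the cytosolic malic enzyme that yields NADPH, was listed at 0, 65.9 and 0 RPKM in iAsF1-F livers, against 31.6, 0 and 0 RPKM in conF1-F. It thus had a value in 1 liver of each group and was listed at 0 in the other 4 livers, and no fold change is given. Acaca encodes acetyl-CoA carboxylase 1, the cytosolic enzyme that commits acetyl-CoA to synthesis. It was listed at 0, 0.00899 and 0.302 RPKM in iAsF1-F livers, against 0.00967, 0 and 0.228 RPKM in conF1-F, with replicate 3 of each group highest. Acacb encodes acetyl-CoA carboxylase 2, whose malonyl-CoA restrains mitochondrial fatty acid uptake. It was at 0.694, 0.589 and 1.08 RPKM in iAsF1-F livers, against 0.344, 1.57 and 0.514 RPKM in conF1-F. The iAsF1-F livers lay within the range of the conF1-F livers, and the log2 difference of Acacb was 0.03, although the iAsF1-F mean was slightly below the conF1-F mean in RPKM. No limma test is given for Acaca and Acacb, which were under the level for testing, and the exact permutation test (two-sided) gave p = 0.9 for Acacb.

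In the GENCODE annotation of GRCm38 the genes whose groups did not overlap are Thrsp (chr7:97412938-97417730, minus strand), Acly (chr11:100476353-100528000, minus strand) and Acss2 (chr2:155517948-155585724, plus strand), and Fasn is at chr11:120805846-120824547 on the minus strand. By their decimals their values are means over 2 entries for Thrsp, 6 for Acly, 4 for Acss2 and 4 for Fasn. No exon or isoform is told apart.

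Within conF1-F the livers kept a similar order in several of the genes. Within iAsF1-F the order was the same for Thrsp, Acly and Acss2, with replicates 2 and 3 nearly equal for Acly, and different for Fasn and Srebf1. In iAsF1-F, replicate 1 was the highest liver for Thrsp, Acly and Acss2, and replicate 3 for Fasn and Srebf1. In conF1-F, replicate 3 was the highest liver for Srebf1, Acly, Fasn, Acss2 and Thrsp, and replicate 1 was the lowest of all 6 livers for Srebf1, Acly, Fasn and Thrsp. For Mlxipl the order within conF1-F was different, with replicate 2 highest and replicate 3 lowest of all livers, and conF1-F replicate 2 was also the highest liver for Acacb. Without conF1-F replicate 3 the groups were separate for 5 of the 9 genes, Srebf1 and Fasn in addition to the 3 above. Leaving out the highest conF1-F liver of these genes makes separation easier. The share over all tested genes was not counted for this split, so the 5 have no background beside them. Averaged over the 7 genes never listed at 0, each centred on its own mean, the livers stood at 0.21, 0.17 and 0.20 log2 units in iAsF1-F and at −0.40, −0.12 and −0.05 in conF1-F. Relative depth of replicates 1 to 3 was 67.0%, 94.8% and 100% in iAsF1-F and 90.0%, 77.0% and 76.6% in conF1-F. Within each group Thrsp and Acly were higher in the shallower libraries, while Fasn within iAsF1-F was higher in the deeper ones. The part of depth in these orders was not tested.

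**Figure D3:**
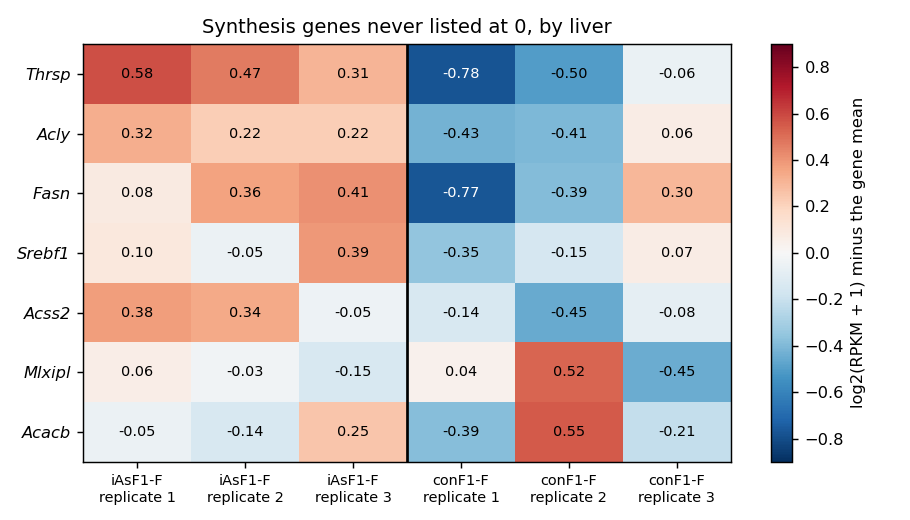
Log2(RPKM + 1) of the 7 genes never listed at 0 (rows) in each liver (columns, iAsF1-F left and conF1-F right), minus the gene's mean over the 6 livers (red above, blue below, value in each cell). Thrsp, Acly and Fasn are lowest in conF1-F replicate 1 (−0.78, −0.43 and −0.77), and Mlxipl and Acacb are highest in conF1-F replicate 2 (0.52 and 0.55).

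Upstream sequence is shown for Acly, whose groups did not overlap, and for Fasn, the synthase itself. RefSeq promoters of GRCm38.p6 were found for all 9 genes (13 start sites), and 250 bases before each start were searched on both strands for 5 motifs. These were TCACNCCAC (a form of the sterol regulatory element bound by SREBP), the E-box CACGTG, the CCAAT box bound by NF-Y (CCAAT), the GC box bound by Sp1 (GGGCGG) and the TATA box (TATAAA). Sequences run 5′ to 3′ toward the start site on the gene's strand, with every match on either strand in capitals. Acly (chr11:100528001-100528250) and Fasn (chr11:120824548-120824797) both lie on the minus strand. GENCODE starts Thrsp and Acss2 farther upstream than RefSeq does, so that 180 of the 250 bases for Thrsp and 95 of those for Acss2 lie inside the GENCODE gene, and these windows are described by their matches only.
Acly: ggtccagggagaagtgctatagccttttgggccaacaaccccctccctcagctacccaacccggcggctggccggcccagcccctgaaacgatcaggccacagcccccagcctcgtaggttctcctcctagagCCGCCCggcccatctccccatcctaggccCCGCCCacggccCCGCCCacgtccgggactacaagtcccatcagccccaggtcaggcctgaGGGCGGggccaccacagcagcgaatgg
Fasn: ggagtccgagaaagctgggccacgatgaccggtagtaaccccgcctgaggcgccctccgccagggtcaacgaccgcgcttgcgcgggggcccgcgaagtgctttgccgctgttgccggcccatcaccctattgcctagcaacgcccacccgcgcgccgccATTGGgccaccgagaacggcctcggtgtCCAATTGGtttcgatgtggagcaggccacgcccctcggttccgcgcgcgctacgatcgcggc

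In Acly the capitals are 4 GC boxes. In Fasn they are 3 CCAAT boxes on 2 strands, of which those at −62 to −58 and −59 to −55, counted back from the start site, overlap in CCAATTGG. The Thrsp window held 2 CCAAT boxes, at −79 to −75 (as ATTGG) and −52 to −48 from the RefSeq start, and the Acss2 window held 4 GC boxes and 1 CCAAT box. Over all 32851 promoters of the same length, 33.8% held a CCAAT box, 32.7% a GC box, 12.4% a TATA box, 6.02% the E-box and 1.05% the sterol regulatory element. Of the 13 windows, only 1 of Mlxipl held the sterol regulatory element and only the other of Mlxipl the E-box, and only that of Acacb a TATA box. The Mlxipl window with the sterol regulatory element and that of Acacb lie wholly inside their GENCODE genes. So do the window of Acaca and some of those of Srebf1 and Me1. A match describes letters only, and no match says nothing of whether a factor binds there.

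Genes that control the pathway or feed it were read from lists of related genes, chosen like the 9 genes with earlier results known. None of the 39 tested genes of these lists passed the adjusted threshold (limma), and 3 were higher and 0 lower at an unadjusted p under 0.05, against 2.75% and 2.37% of all tested genes. Of the genes that control SREBP-1c and ChREBP, 9 of 13 were tested, 4 had a log2 fold change above 0, and the median was −0.05. Those of smallest p were Nr1h2 (LXRβ, log2 fold change −0.37, SE 0.26), Mbtps1 (the site-1 protease that releases SREBP, 0.39, SE 0.28), Insig2 (which holds SREBP in the endoplasmic reticulum, −0.39, SE 0.32) and Scap (the SREBP escort, −0.71, SE 0.65). Scap was at 6.37, 0.528 and 6.27 RPKM in iAsF1-F livers, against 6.13, 6.28 and 5.91 RPKM in conF1-F. The difference of Scap therefore rested on iAsF1-F replicate 2, and without that liver it was 0.04. Insig2 was −0.09 without iAsF1-F replicate 3, and with any 1 liver left out Nr1h2 lay between −0.54 and −0.23 and Mbtps1 between 0.19 and 0.54. Nr1h3, which encodes LXRα, the receptor that induces Srebf1 in liver, stood at 6.75 to 7.38 RPKM in iAsF1-F livers, against 6.36 to 7.59 RPKM in conF1-F.

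Of the genes of substrate supply and of enzyme accessories, 10 of 13 were tested and 7 never listed at 0, with a median of 0.07 over these 7. Stk11 (the kinase LKB1, upstream of AMPK) had a log2 fold change of 0.29 (SE 0.12), Mlycd (malonyl-CoA decarboxylase) −0.17 (SE 0.10) and Mid1ip1 (a relative of Thrsp that activates acetyl-CoA carboxylase) 0.31 (SE 0.25). Aasdhppt, which attaches the phosphopantetheine arm to fatty acid synthase, was at 5.30, 5.83 and 6.33 RPKM in iAsF1-F livers, against a listed 0, 6.75 and 0 RPKM in conF1-F. Without conF1-F replicate 2 it passed (adjusted p = 0.0181 from limma, against 0.877 with all livers and 0.0181 to 0.923 over 13 other settings), and both conF1-F livers left were then listed at 0. Slc25a1, the mitochondrial citrate carrier that feeds Acly, was at 16.6, 18.5 and 21.5 RPKM in iAsF1-F livers, against 16.3, 17.7 and 17.4 RPKM in conF1-F, with overlapping groups. For cytosolic NADPH, 3 of 6 genes were tested. Idh1 (cytosolic isocitrate dehydrogenase) had a log2 fold change of 0.21 (SE 0.11), Pgd (6-phosphogluconate dehydrogenase) −0.54 (SE 0.61) and Mdh1 (cytosolic malate dehydrogenase) −0.14 (SE 0.20). Pgd was −1.0 without iAsF1-F replicate 2 and −0.10 without conF1-F replicate 3.

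Among other targets of SREBP-1c and ChREBP, 12 of 15 were tested and 8 never listed at 0, with a median log2 fold change of 0.23 over these 8 and 0.13 over all 12. The groups were separate and higher for Scd1, G6pc and Fads1, as for 5.83% of all tested genes. Scd1, the desaturase that turns the saturated products into monounsaturated fatty acids, was at 1165, 923 and 1298 RPKM in iAsF1-F livers, against 232, 389 and 461 RPKM in conF1-F. For Scd1 the log2 fold change was 1.69 (SE 0.29), the largest of the list among genes never listed at 0, with an adjusted p = 0.279 (limma). G6pc, which encodes the glucose-releasing phosphatase of the liver and is a ChREBP target, had 1.27 (SE 0.28), Fads1 (the delta-5 desaturase) 0.14 (SE 0.06) and Txnip (which binds thioredoxin) 0.32 (SE 0.18). The paper places G6pc in gluconeogenesis, directly under the transcription factor FoxO1, and reports it higher in iAsF1-F liver by RT-qPCR. G6pc is therefore not read here as a gene of fatty acid synthesis. Fads2 (the delta-6 desaturase) was at 157 to 181 RPKM in iAsF1-F livers, against 169 to 177 RPKM in conF1-F. Elovl6, which elongates palmitate, was listed at 0, 0 and 44.1 RPKM in iAsF1-F livers, against 22.2, 0 and 42.0 RPKM in conF1-F, and no fold change is given.

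**Figure D4:**
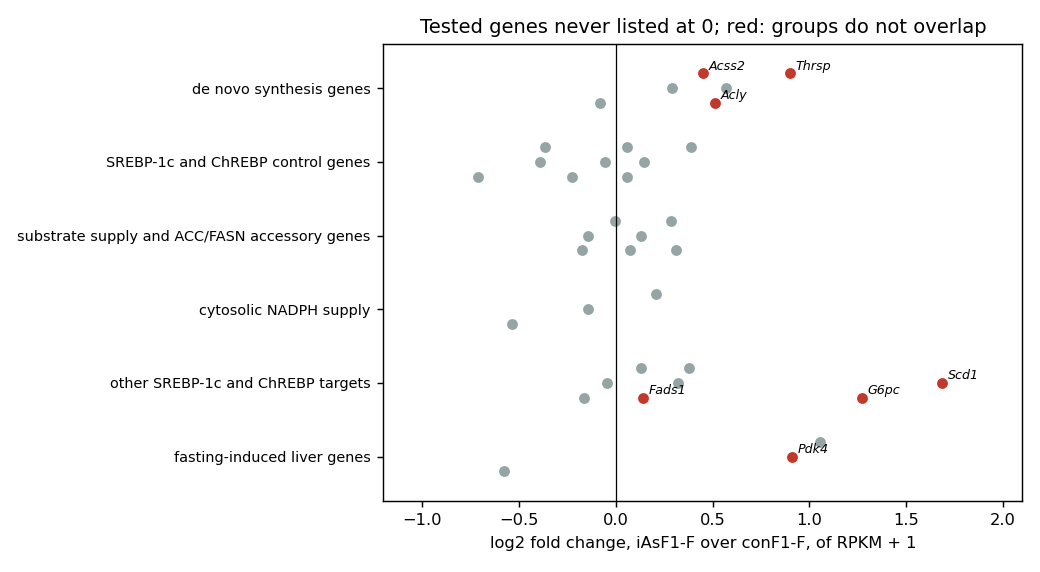
Log2 fold change of RPKM + 1, iAsF1-F over conF1-F (horizontal axis), of each tested gene never listed at 0 (points), in rows for the genes of the pathway and 5 lists of related genes, with points spread vertically only for sight. Red, named points are genes whose groups do not overlap, and all of these lie above 0.

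Genes that fasting raises in liver were read beside the pathway. Of 8 such genes, 5 were tested and none passed when adjusted (limma). At an unadjusted p under 0.05, 1 was higher and 0 lower (limma), against 2.75% and 2.37% of all tested genes. That gene, Pdk4, was already counted among the related lists above. Pdk4, the kinase that shuts pyruvate dehydrogenase, was at 4.36, 3.83 and 2.48 RPKM in iAsF1-F livers, against 1.96, 0.878 and 1.46 RPKM in conF1-F, with separate groups and a log2 fold change of 0.91 (SE 0.26). Its unadjusted p was 0.015, and 0.0505 and 0.051 without iAsF1-F replicate 1 or 2 (limma). Cyp4a14, a fatty acid hydroxylase under PPARα, was at 181, 215 and 305 RPKM in iAsF1-F livers, against 274, 340 and 429 RPKM in conF1-F, a log2 fold change of −0.58 (SE 0.25) with overlapping groups. Pck1, the cytosolic PEP carboxykinase, had 1.05 (SE 0.54) with groups that overlapped through conF1-F replicate 2 alone, and 1.64 without that liver (adjusted p = 0.188, limma). By RT-qPCR the paper reports Pck1, like G6pc, as higher in iAsF1-F liver. Igfbp1, a liver protein that binds insulin-like growth factors, was at 29.3, 23.8 and 20.3 RPKM in iAsF1-F livers, against a listed 7.97, 24.0 and 0 RPKM in conF1-F.

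Of the 5181 other tested genes never listed at 0, the 5 whose values over the 6 livers followed the mean of the pathway most closely were Gm10222 (a predicted gene), mt-Nd4l (a mitochondrially encoded subunit of complex I), Sdr9c7 (a short-chain dehydrogenase), Iah1 (an esterase) and Scd1. Their Pearson r was 0.978 to 0.986 over 6 livers, given as a description of values from the same libraries. Sdr9c7 was at 17.5, 18.8 and 17.0 RPKM in iAsF1-F livers, against 6.46, 10.7 and 13.5 RPKM in conF1-F, with replicate 3 the highest conF1-F liver and replicate 1 the lowest. Gm10222 and mt-Nd4l had log2 fold changes of 0.14 each. The choice by likeness to a mean whose groups were separate fixes the direction of these genes, so it is not a result about them.

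Hepatocyte markers were present in every liver, and their sum was 37835 to 43046 RPKM in iAsF1-F livers, against 35588 to 41786 RPKM in conF1-F. Of 7 hepatocyte markers, 2 were wholly higher and 1 wholly lower in iAsF1-F, against 5.83% and 5.71% of all tested genes. None of the 7 adipocyte markers and none of the 5 pancreatic markers were rows of the table, so admixture of fat, a tissue that also expresses Fasn and Thrsp, was not tested. Erythroid markers summed to 237 to 367 RPKM in iAsF1-F livers, against 372 to 647 RPKM in conF1-F, with 2 of 5 wholly lower in iAsF1-F. These 2 were globin genes separate by a small margin. The highest iAsF1-F and lowest conF1-F livers were at 78.6 and 80.8 RPKM for Hba-a1 and at 100 and 103 RPKM for Hbb-bs. With 5 of 7 in the table, markers of Kupffer cells and macrophages summed to 44.9 to 118 RPKM in iAsF1-F livers, against 83.8 to 155 RPKM in conF1-F, stellate markers (6 of 6) to 38.9 to 44.8 and 29.9 to 52.1 RPKM, sinusoidal endothelial markers (5 of 6) to 3.59 to 20.4 and 15.0 to 19.4 RPKM, cholangiocyte markers (2 of 5, without Krt19, Krt7 and Epcam) to 3.58 to 5.07 and 5.05 to 18.8 RPKM, and lymphocyte markers (2 of 5) to 0.0754 to 0.654 and 0.0191 to 0.109 RPKM, each in iAsF1-F and conF1-F. Of the endothelial markers Pecam1 was wholly lower in iAsF1-F, at low values of 0.0507 to 0.146 RPKM against 0.354 to 0.461 RPKM in conF1-F. The sums take a listed 0 as 0: in iAsF1-F replicate 1, which has the lowest endothelial and Kupffer sums, Clec4g, Vsig4 and Cd68 were listed at 0, while Clec4g was at 9.05 to 13.2 RPKM in the other livers. The highest sums for erythroid, Kupffer, stellate and cholangiocyte markers were in conF1-F replicate 1, the liver lowest in Thrsp, Acly, Fasn and Srebf1, and their part in these values was not tested. Without that liver Thrsp had a log2 fold change of 0.73, Acly 0.43, Fasn 0.33 and Srebf1 0.19. In whole liver, fewer cells of a type and less RNA per cell cannot be told apart.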

How the data were processed

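RNA-seq was run on total liver RNA, with 3 libraries from iAsF1-F and 3 from conF1-F females. The authors deposited RPKM values, normalized to transcript length and to the mapped reads of each library. STAR 2.5.3a, HTSeq and DESeq2 1.8.2, with mm10 as the genome, are listed in the submitters' processing notes without their roles, and the program behind the RPKM values is not given in the sources used here. The 6 single-library tables equalled the whole-series table in all 105744 cells. Cells shown as dates or times (13 in all) were converted back to numbers, none of them of the 9 genes, and 13 symbols shown as dates were replaced through their Ensembl IDs. Columns were matched to samples through the single-library tables, and 0 other columns of per-sample values were left unused.

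Genes averaging 1 RPKM or more were put on the log2(RPKM + 1) scale. The model (limma 3.58.1, R 4.3.3) held only the group and used a variance trend, and p-values were adjusted by Benjamini-Hochberg across the whole tested set, with a threshold of 0.05. An exact permutation test, two-sided, was added for single genes (scipy 1.17.1). The fit was checked on simulated data. The number of entries behind a value is the smallest that gives at most 6 decimals in every liver. Genes of the pathway were all described, and of each related list the 4 of smallest p were named, with others added after their values were seen (Nr1h3, Slc25a1, Fads2 and Elovl6). Values of a further gene are not reported here. The 5 genes most alike in pattern were ranked by Pearson r. The 9 genes and all lists were chosen with earlier results of these data known. Alternatives were a pseudocount of 0.1, no filter, robust and trendless variance, the replicate number as a block, rescaling, removal of genes listed at 0 and each liver left out, and, added after the data were seen, the sum over entries.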

Additional observations from a re-analysis of the deposited data

How the results depend on the processing

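The number of pathway genes past the adjusted threshold was 0 in each of the 14 other settings (limma), with 1 to 3 higher at an unadjusted p under 0.05. Over all genes, both directions together, 254 to 598 were under that unadjusted level in these settings (limma), the most with no filter. With a liver left out it was 254 to 337 of the 6448 tested genes, and the directions were not counted apart. With each liver left out in turn, 1 to 3 of the 9 genes were higher at an unadjusted p under 0.05 and 3 to 5 had separate groups. Separation is easier with fewer livers, and its share over all tested genes was not counted for these splits. The log2 fold changes of Thrsp, Acly, Acss2, Fasn and Srebf1 were above 0 in all 14 settings. The direction of genes that passed no threshold turned for Mlxipl (−0.32 to 0.16 with a liver left out), Scap (−1.09 to 0.044) and Mdh1 (−0.26 to 0.076). For Me1, with 4 livers listed at 0, the fit gave −1.68 to 2.02 as the livers with a value were left out or kept, and no direction is read from it. Of the related lists, 0 to 1 gene passed when adjusted with a liver left out, 3 to 7 were higher and 0 to 1 lower at an unadjusted p under 0.05, and 1 was lower with the replicate block. Over all genes 16 passed in the reported comparison, 28 to 40 with a liver left out and 5 with genes listed at 0 removed, which tests fewer genes. With the replicate number as a block, 0 genes passed (limma, 281 at an unadjusted p under 0.05), a fit with fewer residual degrees of freedom. No sign that the numbers pair the livers was seen, with correlations of −0.07, 0.02 and 0.01 between the deviations of same-numbered livers. Of the iAsF1-F livers, 1 of 3 correlated best with its own number. Deviations within groups of 3 cannot exclude a pairing. The unknown read number limits low genes such as Acaca and Acacb.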
